A study of Mus musculus with 2 samples.

Results

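Low-methylation windows are the autosomal stretches of 100 kb whose CG methylation was below 60% in the WT library of primary osteoblasts. They were chosen by the WT level itself: a window had to hold at least 100 covered CG cytosines in each library, and windows overlapping an olfactory receptor gene (Olfr) or a vomeronasal receptor gene (Vmn1r, Vmn2r) were left out. The rule found 1032 windows of the 23380 that could be used, or 4.41%. A level is the number of methylated calls divided by the number of all calls, over every CG cytosine of a region. Since WT calls selected the windows, WT levels and the TCKO minus WT differences are given as descriptions, without a test.

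The cells were osteoblasts of 3-day-old C57BL/6 mice, either wild type (WT) or carrying Prx1-Cre together with the floxed alleles Tet1fl/fl, Tet2fl/fl and also Tet3fl/fl (TCKO), so that Cre deletes parts of these 3 genes. Prx1-Cre is driven by a Prrx1 enhancer that is active in mesenchyme of the limb and parts of the skull, so cells of other origin in a culture keep their Tet genes. Whole genome bisulfite sequencing was run on 1 library of each genotype after 3 days of culture. No difference between the genotypes therefore has a replicate check. Bisulfite treatment reads 5mC and 5hmC alike.

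Vertebrate DNA is methylated at most CG pairs, and low averages over long stretches arise in different settings. CpG islands, short stretches dense in CG pairs at promoters, usually carry no methylation, and around developmental regulators such as the Hox genes they can spread over long stretches as methylation valleys. Partially methylated domains are long, gene-poor and late-replicating stretches at the nuclear lamina, in which CG pairs with no CG pair nearby lose methylation as cells divide. TET enzymes oxidise 5mC and thereby open a path to its removal.

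The low-methylation windows held 9337546 calls in WT and 7990935 in TCKO. Over all autosomes the depth was 6.15 and 5.26 calls per CG cytosine. As a check of the genotype labels, 62 WT calls and 1 TCKO call lay in exon 11 of Tet1, 155 and 46 in exon 10 of Tet2, and 14 and 0 in exon 9 of Tet3. These exons were picked for their low TCKO counts. At marker genes of cell types, levels were read over the 500 bases on either side of the annotated start. The mesenchymal and osteoblast genes Runx2, Col1a1, Prrx1 and Twist1 had WT levels of 2.88%, 1.41%, 0 of 538 calls (allowing up to 0.558%) and 0 of 56 calls (allowing up to 5.36%). The osteoblast genes Col1a2, Alpl and Sp7 had 9.86%, 23.4% and 38.0%. The same stretch had 63.7% to 80% at 3 blood genes (Ptprc, Spi1, Cd79a) and 2 endothelial genes (Cdh5, Pecam1). Promoters dense in CG pairs usually carry no methylation, so these levels alone do not identify the cells. Expression was not measured in these libraries.

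Sequences from inside the windows show the range of CpG content they covered. Each is 200 bases of the plus strand of GRCm38, with CG pairs in capitals. The first set comes from bins with at least 10 CpGs and 100 calls in each library, and is shown because these bins had the lowest WT levels (Tfap2a, in an intron, chr13:40730801-40731000, and Tnrc18, the nearest gene to an intergenic bin at chr5:142819601-142819800), the highest (Bahcc1, intron, chr11:120258001-120258200, and Polr1d, nearest gene, chr5:147112601-147112800) or the largest rise in TCKO (Nfib, intron, chr4:82556001-82556200, Alx4, nearest gene, chr2:93616201-93616400, and Mn1, intron, chr5:111432201-111432400).
Tfap2a bin: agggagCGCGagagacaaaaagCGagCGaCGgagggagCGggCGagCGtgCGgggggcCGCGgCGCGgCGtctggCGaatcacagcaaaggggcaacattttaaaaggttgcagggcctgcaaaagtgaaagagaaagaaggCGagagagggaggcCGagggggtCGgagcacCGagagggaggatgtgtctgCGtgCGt
Tnrc18 bin: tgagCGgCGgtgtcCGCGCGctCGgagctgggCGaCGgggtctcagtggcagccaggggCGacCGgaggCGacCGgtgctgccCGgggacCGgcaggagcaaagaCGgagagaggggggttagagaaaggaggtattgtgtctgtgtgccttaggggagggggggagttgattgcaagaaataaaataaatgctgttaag
Bahcc1 bin: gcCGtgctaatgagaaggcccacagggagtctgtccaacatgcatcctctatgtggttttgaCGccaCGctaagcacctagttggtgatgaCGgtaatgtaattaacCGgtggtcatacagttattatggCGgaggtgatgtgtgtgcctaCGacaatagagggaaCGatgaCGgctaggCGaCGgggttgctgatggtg
Polr1d bin: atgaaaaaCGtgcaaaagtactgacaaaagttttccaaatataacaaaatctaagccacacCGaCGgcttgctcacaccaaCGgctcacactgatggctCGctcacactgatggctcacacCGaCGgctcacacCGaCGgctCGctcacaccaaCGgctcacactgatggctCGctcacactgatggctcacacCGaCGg
Nfib bin: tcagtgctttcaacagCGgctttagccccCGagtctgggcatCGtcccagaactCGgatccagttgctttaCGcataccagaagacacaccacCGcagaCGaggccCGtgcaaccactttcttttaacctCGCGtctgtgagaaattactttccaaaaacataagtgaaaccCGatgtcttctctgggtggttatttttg
Alx4 bin: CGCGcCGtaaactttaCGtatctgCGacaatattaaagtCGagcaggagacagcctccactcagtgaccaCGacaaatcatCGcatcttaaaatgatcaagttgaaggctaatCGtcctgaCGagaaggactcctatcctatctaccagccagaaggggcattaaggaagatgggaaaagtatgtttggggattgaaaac
Mn1 bin: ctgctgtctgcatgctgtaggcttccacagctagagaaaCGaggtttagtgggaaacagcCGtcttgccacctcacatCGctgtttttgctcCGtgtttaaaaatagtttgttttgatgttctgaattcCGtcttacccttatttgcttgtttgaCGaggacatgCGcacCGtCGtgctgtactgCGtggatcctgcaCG

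The Tfap2a bin holds 21 CpGs, and 0 of 505 WT calls (allowing up to 0.594%) and 1.12% of 268 TCKO calls were methylated. The Tnrc18 bin with 15 CpGs had 0 of 425 calls methylated in WT and 0 of 386 in TCKO, which allows up to 0.706% and 0.777%. The Bahcc1 bin, with 11 CpGs, stood at 97.4% of 117 calls and 98.3% of 121 calls. The Polr1d bin, with 14 CpGs, stood at 95.5% and 97.6%. Its sequence repeats short units that the reference does not mask. In the Nfib bin, 0 of 100 WT calls (allowing up to 3.00%) and 63.3% of 147 TCKO calls were methylated (95% Wilson interval 55.2% to 70.6%). Nfib encodes a nuclear factor I transcription factor. The bin near Alx4, a homeobox gene of skull and limb patterning, went from 25.5% (19.3% to 32.8%, 157 calls) to 80.2% (72.0% to 86.4%, 116 calls). The Mn1 bin went from 30.4% (23.6% to 38.2%, 148 calls) to 80% (71.1% to 86.7%, 100 calls). Mn1 encodes a transcription cofactor needed for growth of the membranous skull bones. These intervals cover counting error only. All these bins lay in windows rich in CpGs.

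The second set shows stretches with 2 CpGs from CpG-poor windows. For 2 long runs of low-methylation windows, the bin with most calls among those with at most 2 CpGs, without masked repeats and outside exons, is printed. The Klra bin, named after its run (chr6:130871601-130871800, inside the pseudogene Gm33962), had 63.7% of 102 WT calls and 58.8% of 85 TCKO calls methylated. Its window held no protein-coding start and had 14.2 WT calls per cytosine, where the median of usable windows was 6.69. The intergenic bin of chromosome 7 (chr7:60267001-60267200) had 29.9% of 77 calls and 30.1% of 103 calls methylated. Both lay between 20% and 80% in both libraries. Stretches of 1 kb with at least 20 calls in each library mostly did so in WT, 91.9% of them in CpG-poor windows and 68.9% in CpG-rich windows.
Klra bin: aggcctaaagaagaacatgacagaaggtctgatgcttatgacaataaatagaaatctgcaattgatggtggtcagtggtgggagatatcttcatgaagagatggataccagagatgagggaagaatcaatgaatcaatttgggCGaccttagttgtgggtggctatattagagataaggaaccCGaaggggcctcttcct
Chromosome 7 bin: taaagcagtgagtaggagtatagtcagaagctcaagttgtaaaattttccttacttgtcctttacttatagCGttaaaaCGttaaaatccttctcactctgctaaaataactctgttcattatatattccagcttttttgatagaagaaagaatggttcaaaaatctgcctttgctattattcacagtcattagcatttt

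The 1032 windows fell into 2 kinds of different CpG density. The median density of all usable windows was 7.90 CpGs per kb, and 560 low-methylation windows lay at or above it (CpG-rich) and 472 below it (CpG-poor). This split uses the reference sequence only, but it was made after the values were seen. The CpG-rich windows had a median of 14.1 CpGs per kb, above the 10.8 of other CpG-rich windows, and the CpG-poor windows a median of 5.16, below the 5.74 of other CpG-poor windows. From 8 to 10 CpGs per kb there were 54 low-methylation windows, which is 1.35% of all usable windows of that density, against 6.29% below 5 CpGs per kb and 59.2% (42 windows) at 20 or more.

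In the low-methylation windows together, the pooled level was 54.7% in WT (95% Wilson interval 54.6% to 54.7%) and 58.9% in TCKO (58.9% to 58.9%), a difference of 4.24 percentage points. In the other windows it was 71.2% and 77.6%, a difference of 6.47 points. TCKO was higher than WT by at least 5 points in 411 low-methylation windows (39.8%), where the share over all usable windows was 68.3%. It was lower by at least 5 points in 9 (0.872%), against 0.184% of all usable windows. It was lower by any amount in 286 (27.7%), against 6.52%. These shares rest on the WT calls that chose the windows and are not evidence on their own.

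The CpG-rich windows were higher in TCKO nearly throughout, as were other CpG-rich windows. Their median level was 56.2% in WT and 61.4% in TCKO, the median difference was 5.72 points, and 543 of the 560 (96.96%) were higher in TCKO. Among other CpG-rich windows, 98.4% were higher in TCKO and the median difference was 7.32 points. The CpG-poor windows were divided. Their median level was 57.9% in WT and 56.9% in TCKO, the median difference was -1.12 points, and 269 of the 472 (57.0%) were lower in TCKO. The differences spread unevenly, from -6.09 to 17.9 points, so that their mean (0.772 points) and the pooled difference (1.01 points) had the other sign than their median. Among other CpG-poor windows, 9.49% were lower in TCKO and the median difference was 5.53 points. The direction of the CpG-poor windows depended on how they were chosen. The share lower in TCKO was 50.7% outside chromosome 7, 49.7% for means over cytosines with at least 4 calls, 41.3% with at least 1000 covered cytosines in each library, 39.6% with a WT threshold of 65% and 68.2% with one of 55%. No window below 5 CpGs per kb can hold 1000 CG cytosines. The pooled difference ranged from 0.0796 to 2.26 points over the alternatives run. Counted on each strand alone, 239 CpG-poor windows (50.6%) were lower on both strands and 168 (35.6%) were higher on both. When calls of the plus strand chose the windows and only calls of the minus strand measured them, 58.3% of CpG-poor windows were lower and the pooled differences were 0.794 points in CpG-poor and 5.96 in CpG-rich windows. Over the 1032 windows, CpG density and the difference had a Pearson r of 0.453 and a Spearman rho of 0.536, as a description over windows that share 2 libraries.

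**Figure D1:**
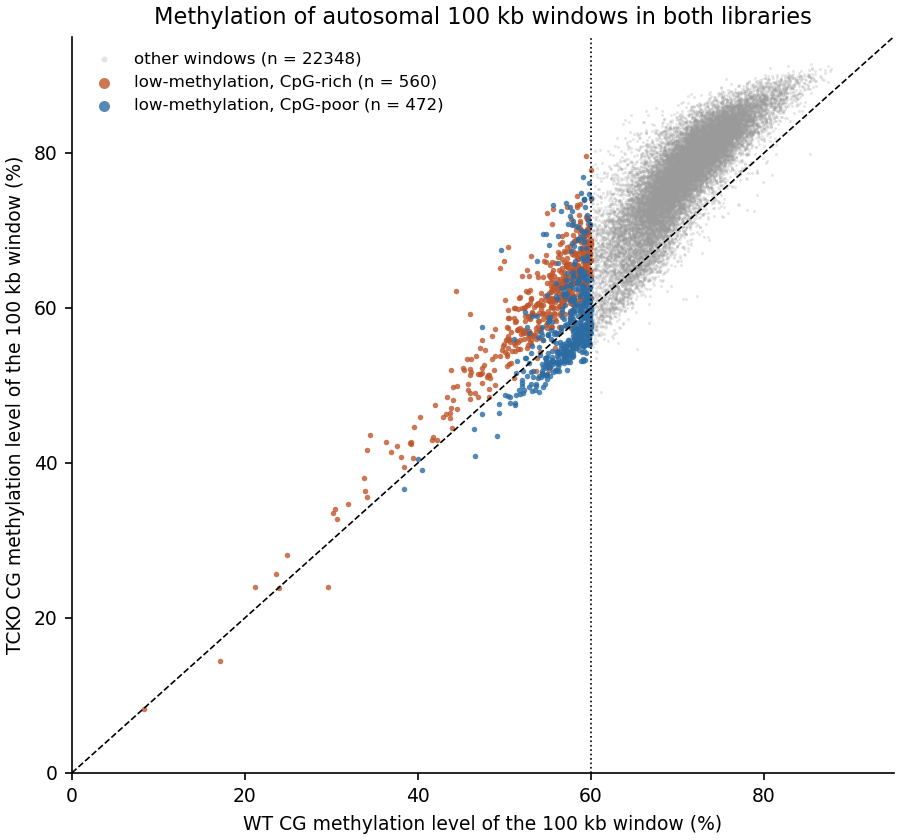
CG methylation level of each autosomal 100 kb window in WT (horizontal, %) and TCKO (vertical, %); the dashed line marks equal levels and the dotted line the 60% threshold. Of the CpG-rich low-methylation windows (orange) 543 of 560 lie above the dashed line, and of the CpG-poor ones (blue) 269 of 472 lie below it. Of the other windows (grey) 94.5% lie above it.

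**Figure D2:**
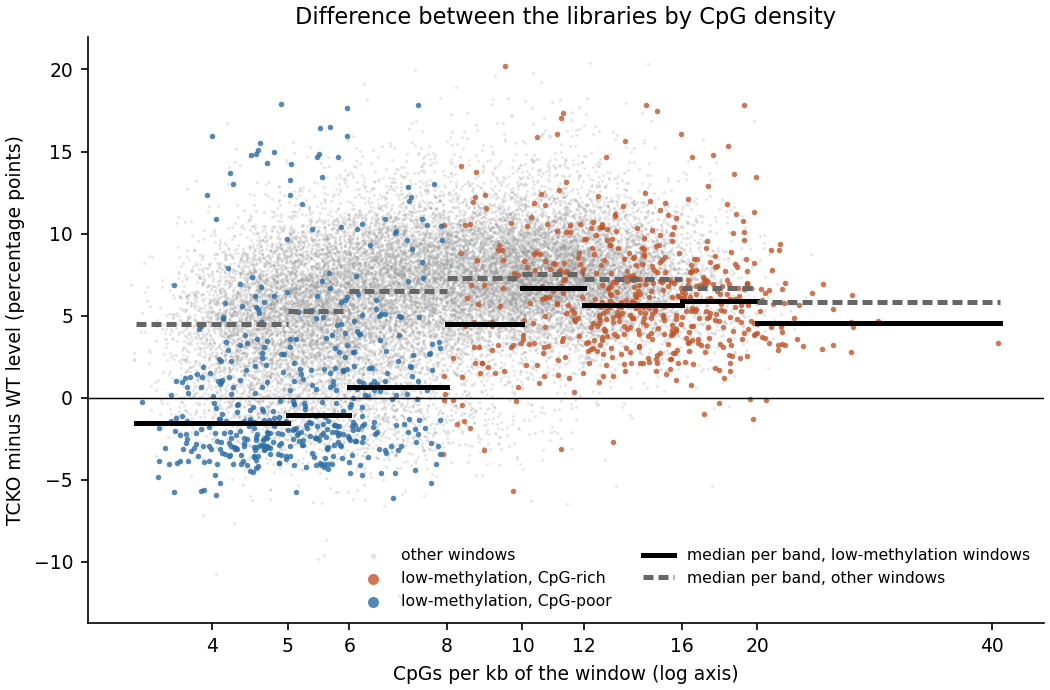
TCKO minus WT level in percentage points against CpGs per kb (log axis) for each window; thick lines are medians of density bands, solid for low-methylation windows and dashed for other windows. The solid line is at -1.55 points below 5 CpGs per kb and at 6.70 points from 10 to 12, while the dashed line stays between 4.48 and 7.53.

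The 60% threshold did not separate distinct sets. Just inside it, from 58% to 60%, 226 CpG-poor windows had a median difference of -0.407 points and 55.3% were lower in TCKO. Just outside, from 60% to 62%, 373 CpG-poor windows had 0.610 points and 44.8%. The share of CpG-poor windows lower in TCKO went on to 34.3% at WT levels from 60% to 65%, 10.2% from 65% to 70% and 2.10% from 70% to 75%. For CpG-rich windows the median difference was 6.56 points just inside and 6.84 just outside. By the same threshold, 758 usable windows were below 60% in TCKO. Of these, 546 were also below it in WT, which is 52.9% of the low-methylation windows. The 486 windows that left the set in TCKO comprised 350 CpG-rich and 136 CpG-poor ones, and of the 212 that entered it 200 were CpG-poor.

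At a finer scale, the 2 kinds were low in different ways. Each window was cut into stretches of 1 kb, of which those with at least 20 calls in each library were used. In CpG-rich windows, 12.7% of 51306 stretches were below 20% in WT, 68.9% lay between 20% and 80% and 18.4% were at 80% or above, and in TCKO the shares were 10.9%, 56.6% and 32.5%. In CpG-poor windows, 2.78% of 34654 stretches were below 20% and 5.35% at 80% or above in WT, and 91.9% lay between. In TCKO the middle still held 89.2%. Other windows had 66.1% of stretches in the middle in WT and 47.1% in TCKO. Most stretches were thus in the middle range in both kinds, and the CpG-rich windows had larger shares at either end than the CpG-poor ones.

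**Figure D3:**
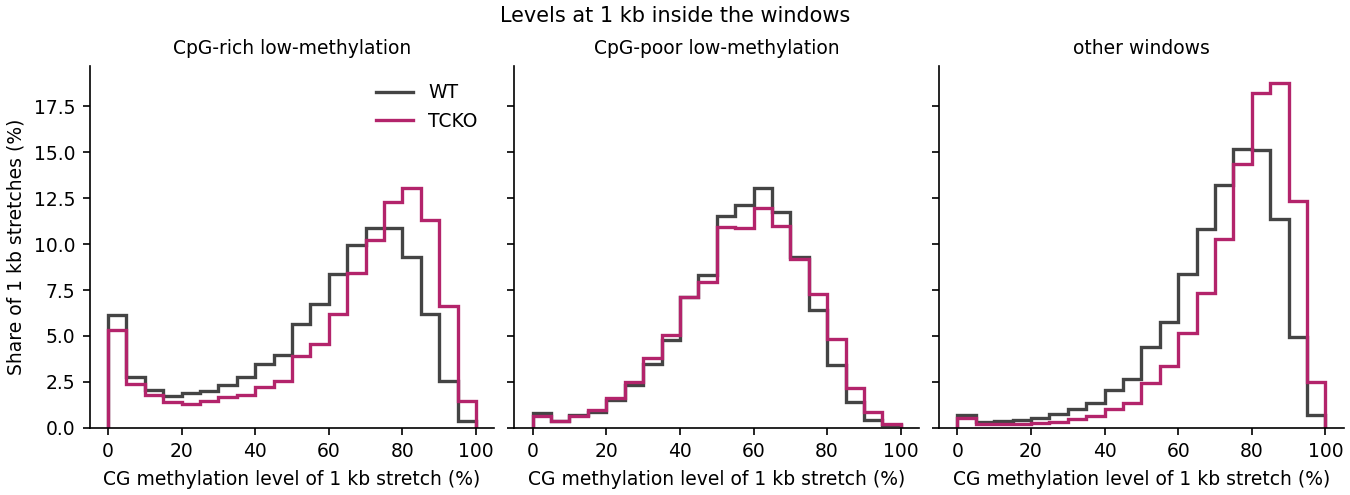
Share of 1 kb stretches (vertical, %) by CG methylation level (horizontal, %, in steps of 5) in WT (grey) and TCKO (magenta), for CpG-rich and CpG-poor low-methylation windows and other windows. The CpG-rich panel has a peak near 0 and another that moves right in TCKO, while the curves of the CpG-poor panel lie nearly on each other with medians of 58.3% for WT and 58.8% for TCKO.

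CpG-dense bins are those of 200 bases with at least 10 CpGs. Their number follows in part from the split by CpG density. A CpG-rich low-methylation window held a median of 21 such bins, against 6 in other CpG-rich windows. The median was 1 in CpG-poor low-methylation windows and also 1 in other CpG-poor windows. Of the 9762 dense bins in CpG-rich windows with at least 10 calls in each library, 78.1% were below 20% in WT and 77.1% in TCKO, and their pooled level was 18.5% and 19.3%. Within 1 kb of the start of a protein-coding gene, 96.3% of 3466 bins were below 20% in WT, and farther away 68.0% of 6296 bins were. In other windows, CpG-rich and CpG-poor together, 96.5% of 27959 bins near a start were below 20% in WT, a similar share. The bins farther away there were mostly methylated, with 21.7% of 49151 below 20% and 57.4% at 80% or above. With dense bins left out of the window level, 306 of the 560 CpG-rich windows (54.6%) and 450 of the 472 CpG-poor windows (95.3%) stayed below 60%. Outside the dense bins, the median level of CpG-rich windows was 59.7% in WT and 66.1% in TCKO.

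The 511 dense bins of CpG-poor windows were of another sort. In WT, 35.4% were below 20% and 38.7% at 80% or above, and 53.8% consisted at least to 50% of sequence that the reference masks as repeats, against 3.67% of the bins in CpG-rich windows. Their pooled level was 50.9% in WT and 53.1% in TCKO. Of the 113 near the start of a protein-coding gene, 94.7% were below 20% in WT. Dense bins that went from below 20% in WT to 40% or more in TCKO numbered 66 of 10273 in all low-methylation windows. In other windows they numbered 480 of 77110, a similar share. Within 1 kb of such a start they numbered 8 of 3579 in low-methylation windows and 38 of 27959 in other windows.

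The level also went with how isolated a CG pair was, in different order in the 2 kinds. In CpG-poor windows, 58.5% of CG pairs had no other within 35 bases, and these stood at 53.5% in WT and 54.1% in TCKO. Pairs with 1 neighbour stood at 64.9% and 66.5%, pairs with 2 at 69.6% and 72.0%, and pairs with at least 3 at 65.2% and 68.7%. In CpG-rich windows, isolated pairs stood at 58.8% in WT and 65.2% in TCKO, while pairs with at least 3 neighbours stood at 34.1% and 37.3%. In other windows isolated pairs stood at 69.0% and 75.3%. The bases on either side went with the level as well. CG pairs of CpG-poor windows with A or T on both sides stood at 50.1% in WT and 50.7% in TCKO, and those with G or C on both sides at 67.2% and 68.8%. The same pairs stood at 66.3% and 73.1%, and at 76.3% and 81.5%, in other windows. Each of these levels rests on at least 89185 calls per library.

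Gene content differed between the kinds, as it did between other CpG-rich and other CpG-poor windows. The CpG-rich low-methylation windows held 1678 starts of protein-coding genes, or 29.96 per Mb, and other CpG-rich windows 12.6 per Mb. The CpG-poor windows held 335, or 7.10 per Mb, and other CpG-poor windows 2.68 per Mb. No protein-coding start lay in 61 CpG-rich windows (10.9%) and in 276 CpG-poor windows (58.5%). At the 1661 genes of CpG-rich windows with at least 10 calls in each library, the 500 bases on either side of the start stood at a median of 3.27% and 4.40%. At 292 genes of CpG-poor windows, with a median of 5.5 CpGs in that stretch, it was 53.9% and 50%. Gene by gene, the median difference was 0.507 points at the 1661 genes and -0.146 points at the 292, of which 51.0% were lower in TCKO. Starts below 20% in WT made up 75.3% of the former and 16.4% of the latter, against 62.3% in other windows.

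Gene families showed where the windows lay. Of all 19035 protein-coding genes in usable windows, 10.6% started in a low-methylation window, 8.82% in a CpG-rich and 1.76% in a CpG-poor one. The calls of a promoter count toward the level of its own window, so these shares are a description. All 39 Hox genes, which set positional identity along the body axis and the limb, started in CpG-rich low-methylation windows. Of 95 cadherin and protocadherin genes, which encode adhesion molecules, 35 started in CpG-rich windows (36.8%), and of 29 osteoblast genes 8 did (27.6%). Ribosomal protein genes were near the share of all genes, with 10 of 92 (10.9%), and 26 of 353 Zfp zinc finger genes (7.37%) started in a low-methylation window. None of the 110 keratin and keratin-associated genes did. Of 176 neuronal adhesion and channel genes 26 did (14.8%), of 59 serpins 3 (5.08%), of 34 major urinary protein and lipocalin genes 2 (5.88%) and of 43 collagens 3 (6.98%), which were Col1a1, Col1a2 and Col8a2. The windows of the 8 osteoblast genes had medians of 57.2% and 63.7% and all 8 genes lay in windows higher in TCKO, as 96.96% of CpG-rich windows were. Of the 37 cadherin genes in low windows, which share 9 windows, 26 lay in windows lower in TCKO, where 281 of all 2013 genes in low windows did. Genes of a window share its value, so these 26 are not separate observations. The median over these 37 genes was 55.1% and 54.9%.

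In the CpG-poor windows the family counts were as follows. Of 64 defensin genes, which encode antimicrobial peptides, 18 started there (28.1%), in 6 windows. All 18 lay in windows that were lower in TCKO, as 57.0% of all CpG-poor low-methylation windows were. Defa2 lay in a window of 54.95% and 53.6%. Of 55 killer cell lectin-like receptor and C-type lectin genes, 15 (27.3%) started in CpG-poor windows. Of 53 genes of the prolactin family and the pregnancy-specific and carcinoembryonic glycoproteins, 17 (32.1%) did. Of 32 type 2 taste receptors, which detect bitter compounds, 7 did (21.9%), in 2 windows, with Tas2r102 in a window of 59.1% and 59.3%. Of 43 glucuronosyl- and sulfotransferase genes 4 did (9.30%), and of 96 cytochrome P450 genes 7 (7.29%). Sult2a5, a sulfotransferase, lay in a window of 55.8% and 51.9%, and Cyp3a11, a cytochrome P450 of drug metabolism, in a window of 57.8% and 54.8%. Of 20 trace amine and formyl peptide receptor genes 5 did (25%), all formyl peptide receptors, which sense bacterial peptides. They lay in 2 windows. That with Fpr1 was higher in TCKO, 59.4% and 67.7%, and that with Fpr-rs6 and Fpr-rs7 was lower, 55.3% and 52.3%. Members of these families share windows and sequence, so they are not separate observations, and reads that map equally well to several copies were dropped by the unique mapping.

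Of the 5 windows with the lowest WT level, 4 hold Hox genes. A window of chromosome 15 (102.9 to 103.0 Mb) with Hoxc13 to Hoxc8 stood at 8.38% in WT (7.94% to 8.84%, 14736 calls) and 8.22% in TCKO (7.74% to 8.73%, 11715 calls). The next window, with Hoxc4, stood at 23.6% and 25.6%. The Hoxa window of chromosome 6 (52.2 to 52.3 Mb) stood at 21.2% and 24.0%, and the Hoxb window of chromosome 11 (96.2 to 96.3 Mb) at 23.9% and 23.8%. The 9 windows with Hox starts ranged from 8.38% to 43.7% in WT, and differed from TCKO by -0.161 to 6.39 points. The remaining window among the 5 lowest, on chromosome 13 (120.0 to 120.1 Mb, with the predicted genes Gm36079 and Gm21188), stood at 17.1% and 14.5%.

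The 5 largest rises lay on 5 chromosomes, in 3 CpG-rich and 2 CpG-poor windows. The window of chromosome 6 (4.5 to 4.6 Mb) that holds Col1a2, which encodes the alpha 2 chain of type I collagen, went from 59.4% (58.6% to 60.2%) to 79.6% (78.9% to 80.3%), a difference of 20.2 points and the largest of all low-methylation windows. It had 9.50 CpGs per kb and only 2 dense bins. Over 500 bases on either side of the annotated start of Col1a2 the level was 9.86% of 71 WT calls and 35.4% of 65 TCKO calls. In the 300 bases around its RefSeq start, which hold 13 CpGs, 0 of 32 calls were methylated in WT and 0 of 14 in TCKO, allowing up to 9.38% and 21.4%. The window with Col1a1, the alpha 1 chain, went from 50.5% to 67.9%. The window with Myl1, a light chain of skeletal muscle myosin (chromosome 1, 66.9 to 67 Mb), went from 59.0% to 76.9%, the window with Lyl1, a blood transcription factor, which also overlaps Nfix (chromosome 8, 84.7 to 84.8 Mb), from 44.4% to 62.2%, and a window inside Fgfr2, a fibroblast growth factor receptor (chromosome 7, 130.2 to 130.3 Mb), from 59.98% to 77.8%. The remaining one was a gene-free window of chromosome 18 (88.2 to 88.3 Mb) that went from 49.6% to 67.5%. The window with the start of Prrx1 went from 53.0% to 62.3%. Around that start TCKO had 1336 calls and WT 538. The Prx1-Cre transgene carries Prrx1 sequence, and its part in these calls was not tested.

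The 5 largest falls were smaller, from -5.68 to -6.09 points, and lay in CpG-poor windows. The window with Mrgprb8, a Mas-related receptor gene (chromosome 7, 48.3 to 48.4 Mb), went from 59.3% (58.3% to 60.4%, 8190 calls) to 53.2% (52.1% to 54.4%, 7557 calls). A gene-free window of chromosome 7 (106.4 to 106.5 Mb) went from 59.1% to 53.2%. Adjoining windows of chromosome 6 with Klra7 and Klra10 and with Klra3 and Klra1 went from 46.6% to 40.8% and from 49.1% to 43.4%. The window of chromosome 5 (95.1 to 95.2 Mb) with the predicted genes Gm7942 and Gm16513 went from 59.1% (56.8% to 61.4%) to 53.4% (51.3% to 55.5%), with 1693 and 2198 calls. Of these 5 windows, 3 held no dense bin. The only CpG-rich window lower by at least 5 points, on chromosome 17 (39.8 to 39.9 Mb), went from 29.6% to 24.0% and had the highest WT depth of all low-methylation windows, 30.7 calls per cytosine where the median of usable windows was 6.69.

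Low-methylation windows were clustered along the chromosomes, the CpG-poor ones more than the CpG-rich ones. The 1032 windows formed 675 runs of adjacent windows, of which 507 were single windows and 76 held at least 3. Runs of at least 3 held 341 windows (33.0%). They held 232 of the CpG-poor windows (49.2%) and 109 of the CpG-rich ones (19.5%). Chromosome 7 held 187 low-methylation windows, 15.1% of its usable windows, while on the other autosomes the share was 1.39% to 4.90%. Of its 111 CpG-poor windows 86 were lower in TCKO. The first and the last 5 Mb of the sequenced chromosomes held 4.17% and 6.01% of the low-methylation windows, against 3.996% and 3.75% of the other windows. A window left out for receptor genes lay next to 3.49% of low-methylation windows and 0.958% of other windows.

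The runs had kinds of their own. Of the 76 runs of at least 3, 42 were CpG-poor throughout, 22 CpG-rich throughout and 12 mixed. In 27 of the 42 CpG-poor runs the median difference was below 0, and in none of the 22 CpG-rich runs was it. A usable window next to a run was at or above 60% in WT by the rule, while no such limit held for TCKO. Around CpG-rich runs, the nearest usable windows had medians of 66.9% and 68.0% in WT on the lower and the higher side. Around CpG-poor runs the nearest usable windows had medians of 61.3% and 62.04% in WT and 60.3% and 60.5% in TCKO. TCKO stayed below WT in the median out to 300 kb on both sides, with differences of -1.42 and -1.31 points there, and was above it by 3.14 and 3.63 points at 1000 kb. Receptor windows were left out of these medians.

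**Figure D4:**
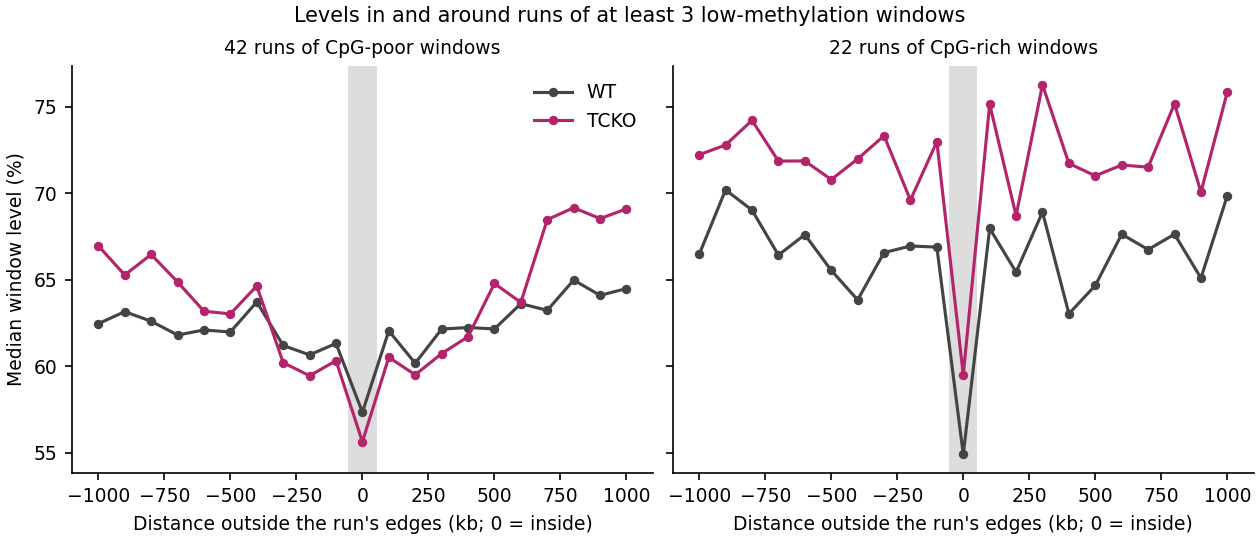
Median window level (vertical, %) in WT (grey) and TCKO (magenta) inside runs of at least 3 low-methylation windows (0, shaded) and in usable windows up to 1000 kb outside either edge, for runs of CpG-poor and of CpG-rich windows. Around CpG-poor runs the curves cross between 300 and 500 kb from the edge, while around CpG-rich runs TCKO lies above WT at every distance.

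The longest run spanned 31 windows of chromosome 7 (16.8 to 19.9 Mb) with 90 protein-coding genes, and both kinds lay side by side in it. Its genes include Strn4, Prkd2, Dact3 and Gng8. Its 14 CpG-rich windows went from a median of 54.7% to 62.9% and all were higher in TCKO. Its 17 CpG-poor windows went from 54.1% to 52.0% and 16 were lower. The run carries Psg and Ceacam genes, which encode placental and cell-surface glycoproteins of the immunoglobulin superfamily, and 21 of them lay whole in it. Psg26 and Psg28 lay in a window of 50.1% and 48.8%, and Ceacam11 in a window of 50.7% and 48.6%.

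Other long runs were CpG-poor and lower in TCKO in nearly every window. The run of chromosome 4 (112.7 to 114.0 Mb) holds Skint10, Skint6 and Skint5, relatives of a gene that selects skin-homing T cells. Its 13 windows ranged from 53.5% to 59.6% in WT and from 49.5% to 57.4% in TCKO, and all 13 were lower. The run of chromosome 6 (130.0 to 131.0 Mb) holds 8 protein-coding genes, of which the first are Klra6, Klra4, Klra8, Klra9 and Klra7, receptors of natural killer cells. Its 10 windows ranged from 38.4% to 54.4% in WT and from 36.6% to 51.6% in TCKO, and all 10 were lower. The 12 windows of chromosome 7 from 60 to 61.2 Mb held 3 starts of protein-coding genes but no whole one. They had a median of 54.7% and 51.9%, and all 12 were lower. The run of chromosome 12 (113.7 to 114.5 Mb), with 43 immunoglobulin heavy chain V genes, had 8 of 8 windows lower, at 56.4% and 53.6%. In the run of chromosome 7 from 38.2 to 39.0 Mb, the 7 CpG-poor windows were lower and the CpG-rich window with Plekhf1, an endosome protein gene, and Pop4, a subunit gene of ribonuclease P, was higher by 5.57 points.

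In other runs the windows were higher or divided. The 8 windows of chromosome 3 from 112.1 to 112.9 Mb, with no whole protein-coding gene, were all higher, with medians of 57.1% and 61.2%. The run of chromosome 7 from 32.5 to 33.2 Mb, 6 CpG-poor windows and a CpG-rich one with androgen-binding protein genes such as Scgb2b15 and Scgb1b15, had medians of 55.05% and 56.5% and 2 windows lower. In the run of chromosome 5 from 94.0 to 94.7 Mb, with BC061212 and other predicted genes, 5 of 7 windows were lower, with medians of 57.0% and 56.7%. Of the 10 longest runs 1 was CpG-rich throughout. This run, on chromosome 10 (80.3 to 81.0 Mb), held 36 protein-coding genes, among them Reep6, an endoplasmic reticulum protein gene, and Adamtsl5. All its 7 windows were higher in TCKO, with medians of 56.5% and 62.5%.

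**Figure D5:**
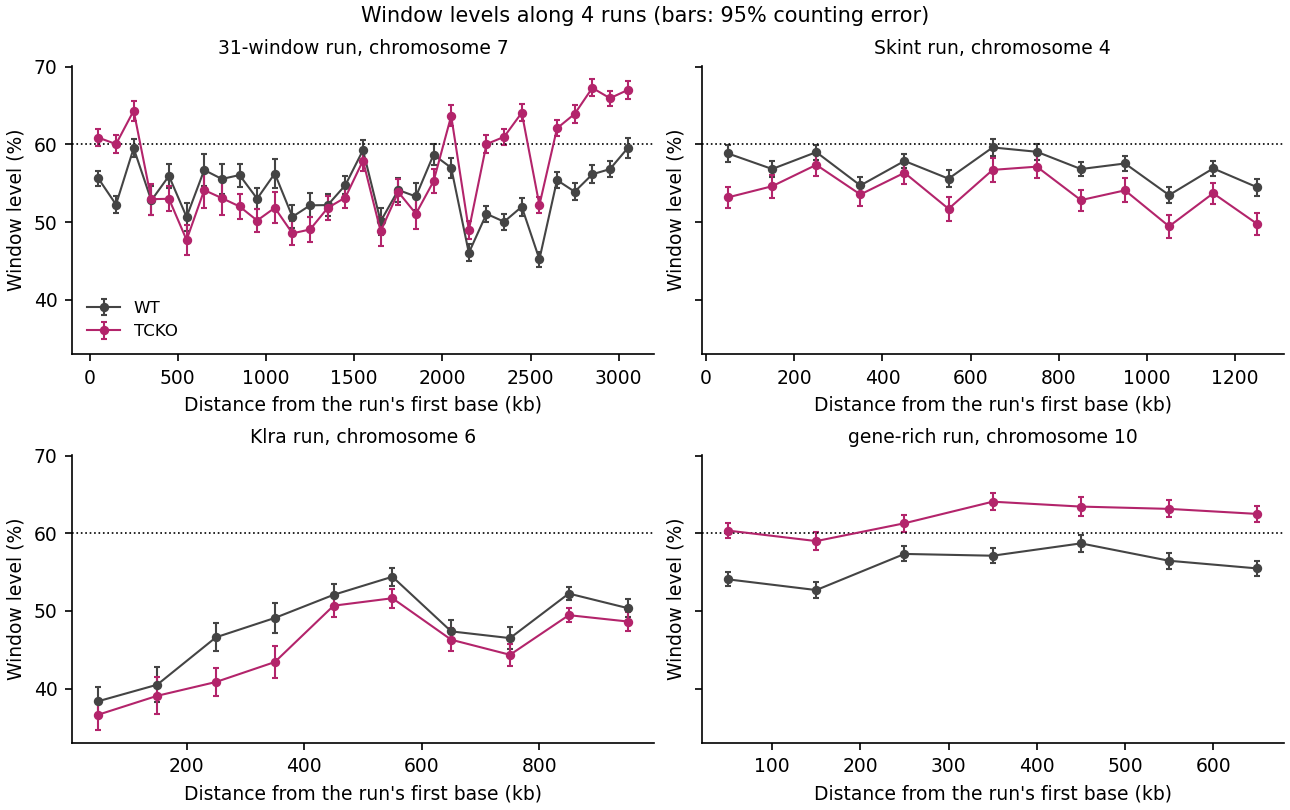
Level of each window (vertical, %) in WT (grey) and TCKO (magenta) along 4 runs, by distance from the first base of the run (horizontal, kb); bars are 95% counting error of the calls and the dotted line marks 60%. In the Skint and Klra runs every TCKO point lies below its WT point, in the chromosome 10 run every one lies above, and the 31-window run switches between both.

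Depth and mappability moved with these levels. The CpG-rich windows had a median of 3.71 WT calls per CG cytosine, against 5.45 in other CpG-rich windows, and 78.004% of their CG cytosines were covered in WT, against 86.5%. The CpG-poor windows had 6.73 calls, against 8.26, and 78.8% covered, against 90.2%. A median of 46.1% of their sequence was masked as repeats, against 37.4% of other CpG-poor windows. The 269 CpG-poor windows lower in TCKO had 49.4% masked sequence, 85.1% of CG cytosines covered and 7.66 calls per cytosine, and the 203 higher ones 40.8%, 73.7% and 5.65. Under 50% of CG cytosines were covered in 41 CpG-poor and 6 CpG-rich windows. The part of repeats, coverage and depth in the levels was not tested.

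The depth of the libraries relative to each other also stood out in some windows. Over all usable windows TCKO had 0.855 calls for each WT call. Relative to this, 61 CpG-poor windows (12.9%) had a TCKO depth under 0.67 or over 1.5, against 4 CpG-rich windows (0.714%) and 0.425% of other windows. The Skint run had a relative depth of 0.564, from 10.8 calls per cytosine in WT and 5.27 in TCKO, and the Scgb run had 2.26, from 1.48 and 2.96. In the Klra run it was 1.06. Of the 61 windows, 33 were higher in TCKO, by a median of 10.5 points, where the CpG-poor windows of even depth that were higher differed by a median of 3.48 points. These 33 all had a relative depth over 1.5. The 28 that were lower comprised 20 under 0.67 and 8 over 1.5. Their median difference was -2.415 points, where that of lower CpG-poor windows of even depth was -2.53. Without the 61 windows, the pooled difference of the CpG-poor windows was 0.423 points, 241 of 411 CpG-poor windows (58.6%) were lower in TCKO and the median difference was -1.31 points. Among the windows named above, that of chromosome 18 with the second largest rise had a relative depth of 1.67 and that of chromosome 5 with Gm7942 had 1.52. A difference in copy number between the animals and one in library preparation cannot be told apart here.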

How the data were processed

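Per the authors' methods and the labels, bisulfite reads were aligned to GRCm38 with BSMAP 2.74, allowing up to 2 mismatches, uniquely mapped reads were kept, and the authors deposited, for each CG cytosine and strand, the counts of methylated calls and of all calls. Removal of duplicate reads was not stated in the sources used here, and a duplicated read would narrow the printed intervals wrongly. WT held 261127589 calls and TCKO 223645082.

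Calls were pooled in windows of 100 kb that start at multiples of 100 kb. Genes were taken from GENCODE M21, CpGs, masked repeats and sequences from the RefSeq copy of GRCm38.p6, in which all covered autosomal CG cytosines of the files fell on CG pairs. A window was lower or higher by the sign of the TCKO minus WT level, and a change of at least 5 points was counted apart. Intervals are 95% Wilson intervals and the limit for 0 calls is 3 calls of the total. CpG-dense bins of 200 bases had at least 10 CpGs and at least 10 calls in each library. No statistical test was made, since WT calls chose the windows and each genotype had 1 library.

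Windows named are the 5 with the lowest WT level, the 5 with the largest rise and the 5 with the largest fall, and the 10 longest runs. Genes named lie whole in these (at most 5 per run) or are list members in the windows of lowest WT level (at most 4 per list), the markers and Tet genes aside. Of the CpG-dense bins chosen likewise (the 3 lowest, the 3 highest and the 3 that rose most), those in exons or mainly masked as repeats were not printed. The bins with at most 2 CpGs were chosen after their values were seen. The windows and gene lists were chosen with earlier results of these data known. The scripts used Python 3.11.15, numpy 2.4.6, pandas 2.3.3, scipy 1.17.1 and matplotlib 3.10.9 and were tested on simulated data.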

Additional observations from a re-analysis of the deposited data

How the results depend on the processing

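No paired analysis was possible because each genotype had 1 library. The pooled differences of both kinds stayed above 0 under each alternative run (CpG-poor 0.0796 to 2.26 points, CpG-rich 4.96 to 7.20), but the direction of most CpG-poor windows did not hold: the share lower in TCKO ranged from 39.6% to 68.2%. The cause of these shifts was not tested.

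At a WT threshold of 55% there were 305 windows, 111 rose and 3 fell by at least 5 points, the density was 13.2 CpGs per kb, genes 24.9 per Mb, the share in runs 14.4%, the dense bins 17.4%, the CpG-poor difference 0.0796 points with 68.2% lower, and the CpG-rich difference 4.96. At 65% the values were 3651 windows with a difference of 4.599 points, 1618 rises, 28 falls, 7.01 CpGs, 14.8 genes, 52.6% in runs, dense bins at 29.0%, and 2.14 points with 39.6% lower and 6.89 points. With at least 1000 covered cytosines they were 615 windows, 5.62 points, 1 fall, 13.7 CpGs, 28.2 genes, 15.6% in runs, dense bins at 18.7%, and 2.26 points with 41.3% lower in CpG-poor windows.

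When the plus strand chose and the minus strand measured, the difference was 4.15 points, 26 windows fell by at least 5 points, 29.0% lay in runs, dense bins stood at 18.9% and the CpG-poor difference was 0.794. For means over cytosines with at least 4 calls, the difference was 4.41 points, with 18 falls, 8.14 CpGs, 17.5 genes, dense bins at 20.9%, and 1.53 points (49.7% lower) and 7.20 points for the 2 kinds. Without cytosines of more than 30 calls it was 4.90 points, with dense bins at 18.9%, 1.53 points (51.7% lower) and 6.25 points. With receptor windows kept it was 3.58 points, with 7.33 CpGs, 38.3% in runs, dense bins at 21.2% and a CpG-poor difference of 0.283. With windows shifted by 50 kb it was 4.29 points, with 20.4 genes per Mb, 1.10 and 5.98 points.

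Alternatives chosen after seeing the data gave 3.24 and 0.701 points (all and CpG-poor) without CpG-dense bins, and 4.63 and 1.79 points with 28.1% in runs and 50.7% of CpG-poor windows lower without chromosome 7. Without thinly covered windows the values were 4.30 and 1.09 points, and without windows of uneven relative depth the CpG-poor difference was 0.423.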

Other observations

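Of the 640 windows left out for olfactory and vomeronasal receptor genes, 174 were below 60% in WT, with pooled levels of 56.5% and 55.3% in WT and TCKO. Of these, 117 of the 174 (67.2%) were lower in TCKO.

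CpG-poor windows also dominated among the windows that were below 60% in TCKO only, with 200 of 212. Within CpG-poor low-methylation windows, the share of masked repeats and the TCKO minus WT difference had a Pearson r of -0.448 and a Spearman rho of -0.427 over 472 windows that share both libraries.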
